A study of Mus musculus with 15 samples.

Results

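The effect of losing the pituitary enhancer (PE) of Nr5a1 on autosomal genes was compared between the sexes, as the change from PE+/− to PE−/− in females minus the same change in males. All 15 libraries of the whole-pituitary count table entered this contrast, from 4 PE+/− females, 3 PE−/− females, 4 PE+/− males and 4 PE−/− males, and no library was left out. The mice carried a CRISPR/Cas9 deletion of the enhancer, which lies in an intron of Nr5a1, on 1 chromosome in PE+/− and on both in PE−/−. The controls were therefore PE+/− and not wild type, and each group carried at least 1 deleted copy. Ages and the stage of the oestrous cycle are not given in the labels, and neither is whether each library came from a separate mouse, so that the p-values measure the spread between libraries.

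Nr5a1 encodes NR5A1, a nuclear receptor made in the pituitary only by gonadotropes, the cells that secrete luteinizing hormone and follicle-stimulating hormone. These hormones drive the gonads of each sex, and the ovary and the testis return different steroids to the gland. Oestradiol acts on lactotropes and gonadotropes through oestrogen receptors, and glucocorticoids and the clock act on most cell types of the anterior lobe.

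The libraries held from 12982794 to 30238443 counts. About 4 counts were taken to stand for 1 fragment, a ratio that the sources do not state. Of 55523 genes, 19286 passed the filter on low counts, and 18601 of these were autosomal. Y-chromosome genes together held 127 to 464 counts in females and 1885 to 4312 in males, so the libraries matched their labelled sex. Nr5a1, the targeted gene, was at 33.7, 39.9, 36.0 and 45.4 CPM in PE+/− females and at 0.618, 0.897 and 0.657 in PE−/− females. The PE+/− males held 80.2, 34.8, 45.8 and 40.2 CPM of it, against 0.303, 0.345, 0 and 0.740 for PE−/− males. It fell in both sexes (adjusted p = 0.000915 and 0.000161), and its counts were at most 29 in each PE−/− library. Oxt and Avp, the hormones of the posterior lobe, were at 0 counts in all 7 female libraries. Oxt had 66 and 123 counts in PE+/− males 2 and 4 and 424 and 83 in PE−/− males 3 and 4, and 0 in the other 4 male libraries. The summed level of the 7 posterior lobe markers reached 179 CPM among PE+/− and 122 among PE−/− males, against at most 19 in females, so 4 male libraries held transcripts typical of that lobe. Levels are given as CPM on library sizes after TMM scaling.

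Across the autosomes, 27 genes had a genotype effect that differed between the sexes at an adjusted p under 0.05 (edgeR quasi-likelihood test, Benjamini-Hochberg adjustment over all genes tested), 0.145% of those tested. In 9 of them the difference was above 0, meaning a change toward higher levels in females relative to males (0.0484%), and in 18 it was below 0 (0.0968%). Scaled by library totals, 38 genes passed, of which 78.9% were below 0, against 66.7% here. The median difference over all autosomal genes was −0.0055 on the log2 scale. Each sex taken alone gave unequal numbers, 684 genes in females (3.68%) and 34 in males (0.183%). As a description of how the 27 differences were made up, since these contrasts share libraries, 17 of the genes fell in females, 5 rose in females, 4 fell in males and 0 rose in males, with Megf10 counted in both sexes. Elovl4 and Mgat4c passed in neither sex alone. Leaving out each library in turn left 5 to 66 genes, the fewest without PE−/− female 3 and the most without PE+/− female 1. In the 11 libraries with no Oxt count, which left 2 males per genotype, 8 genes passed, and 0 of the 27 were among them, although the 20 genes of the 27 named below kept their direction.

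**Figure D1:**
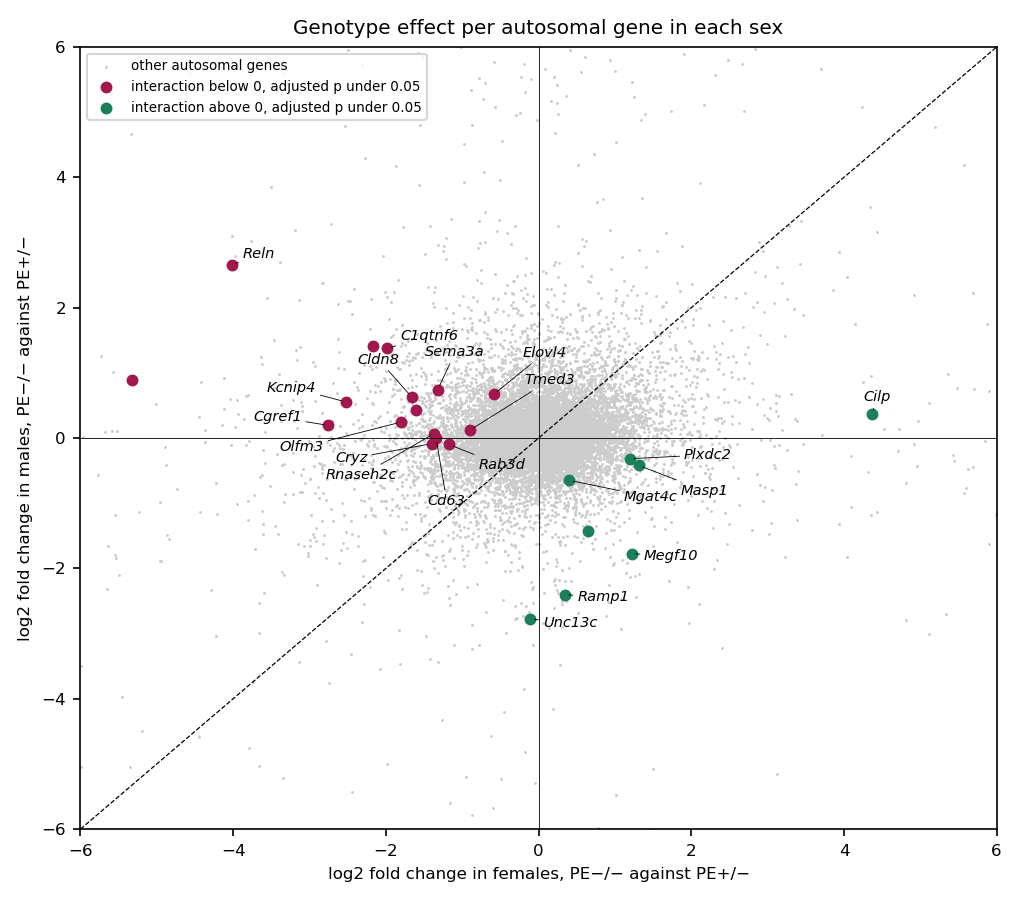
Log2 fold change between PE−/− and PE+/− in females (horizontal axis) and in males (vertical axis) for each autosomal gene tested, with equal effects on the dashed line. Red points are genes whose difference passed the test below 0 and lie mostly left of the centre at a male value near 0, and green points are those above 0. The axes stop at 6, which leaves out 224 genes, of which 3 passed the test.

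Most of the 27 genes fell in females and did not pass in males. Cd63, a tetraspanin of late endosomes and secretory granules (chr10:128900989-128912822, + strand, mm10), stood at 329, 388, 345 and 374 CPM in PE+/− females and at 140, 141 and 143 CPM in PE−/− females. In males it lay between 147 and 184 CPM in PE+/− and between 136 and 178.5 CPM in PE−/−. PE+/− females were thus above every other library. PE−/− females lay below PE+/− males, and PE−/− males overlapped both of these groups. The female change was −1.34 on the log2 scale (adjusted p = 0.000374) and the male change 0.00, a difference of −1.34 ± 0.17 (SE, adjusted p = 0.00761) that passed in 15 of 15 fits without 1 library. A pseudogene, Cd63-ps, could share reads with it. Rab3d, a small GTPase of secretory granules (chr9:21907491-21918192, − strand), was at 316 to 426 CPM in PE+/− females, 161 to 178 in PE−/− females, 194 to 232.5 in PE+/− males and 188 to 218 in PE−/− males. Its difference was −1.07 ± 0.17 (adjusted p = 0.0267), which 7 of the 15 fits kept. Tmed3, a cargo receptor of vesicles between endoplasmic reticulum and Golgi, had 934.5 to 1205 CPM in PE+/− females and 475.5 to 678 CPM across the other 3 groups, with a difference of −1.02 ± 0.18 (adjusted p = 0.0347) that 2 of 15 fits kept. In all 3 genes the level of PE−/− females was within or below the range of the males.

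Crhbp, the binding protein of corticotropin-releasing hormone (chr13:95431371-95444924, − strand), was above the floor of detection in PE+/− females alone. It stood at 328, 161, 471 and 315 CPM in the PE+/− females. In PE−/− females it was at 0, 0.217 and 0 CPM, in the 4 PE+/− males at 0, and in PE−/− males at 0, 0, 0.422 and 0.455. Every library outside PE+/− females was at or under the floor of 12 counts, taken as 3 fragments. Against that floor in each library, Crhbp was at least 584-fold lower in PE−/− than in PE+/− females, and no fold can be given in males. The difference between the sexes had an adjusted p of 0.0184 and passed in 11 of 15 fits without 1 library.

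Cgref1, a secreted protein with calcium-binding EF hands (chr5:30933143-30945591, − strand), was at 54.4, 152.5, 142 and 107.5 CPM in PE+/− females and at 16.3, 19.03 and 15.4 in PE−/− females. Males held 14.9 to 23.7 CPM in PE+/− and 16.1 to 26.6 in PE−/−. PE−/− females fell to 14.8% of PE+/− females and into the male range (difference −2.95 ± 0.41, adjusted p = 0.0171, 13 of 15 fits). Cldn8, a claudin of tight junctions (chr16:88560828-88563183, − strand), was at 333, 240, 245 and 213 CPM in PE+/− females and at 65.4, 93.9 and 85.1 in PE−/− females. In males it ran from 35.8 to 76.0 CPM in PE+/− and from 63.4 to 92.8 in PE−/−. The genotypes did not overlap in females and overlapped in males, where the change of 0.63 did not pass (adjusted p = 0.602), and the difference was −2.29 ± 0.35 (adjusted p = 0.0218, 11 of 15 fits).

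C1qtnf6, a secreted protein of the C1q and tumour necrosis factor related family, had effects of opposite sign in the sexes. It was at 8.44, 15.9, 22.9 and 13.7 CPM in PE+/− females and at 5.81, 3.40 and 2.45 in PE−/− females. In males it was at 2.47, 1.95, 2.20 and 1.55 CPM in PE+/− and at 4.75, 4.33, 5.48 and 6.66 in PE−/−. The genotypes did not overlap in either sex, but the fall in females passed (−1.98, adjusted p = 0.00887) and the male value did not (1.38, adjusted p = 0.192). The difference was −3.36 ± 0.48 (adjusted p = 0.0173, 14 of 15 fits), and an antisense gene model overlaps the locus. Sema3a, a secreted guidance cue, had the same arrangement, with 13.03 to 30.4 CPM in PE+/− females against 8.01 to 10.8 in PE−/− females, and 5.18 to 7.63 in PE+/− males against 7.85 to 12.04 in PE−/− males. Its difference was −2.06 ± 0.35 (adjusted p = 0.0347), which 3 of 15 fits kept. In Elovl4, an elongase of very long chain fatty acids, the groups also separated in opposite directions, with 47.5 to 65.1 against 36.4 to 38.1 CPM in females and 18 to 27.1 against 31.0 to 39.1 CPM in males (difference −1.26 ± 0.22, adjusted p = 0.0347, 4 of 15 fits).

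Another 4 named genes fell in females and did not pass in males. Kcnip4, which binds Kv4 potassium channels, had 8.52 to 27.9 CPM in PE+/− females, 2.94 to 3.85 in PE−/− females and 1.62 to 4.91 across males (difference −3.08 ± 0.52, adjusted p = 0.0347). Olfm3, an olfactomedin, had 69.3 to 111 CPM against 20.7 to 29.8 in females and 19.3 to 38.9 across males (−2.05 ± 0.33, adjusted p = 0.0312). Cryz, a quinone oxidoreductase, and Rnaseh2c, a subunit of ribonuclease H2, had differences of −1.32 ± 0.21 (adjusted p = 0.0267) and −1.44 ± 0.25 (adjusted p = 0.0422). They overlap Tyw3 and Kat5, and Kcnip4 overlaps the protein-coding gene 5730480H06Rik and many gene models, and counts of overlapping genes are uncertain. These 4 calls were kept in 2 to 7 of 15 fits. Just outside the threshold were Creb3l1, a transcription factor bound to the endoplasmic reticulum (−2.52, adjusted p = 0.0507), Cip2a (−2.39, adjusted p = 0.0521) and Dpm3, a subunit of dolichol-phosphate mannose synthase (−1.10, adjusted p = 0.0535).

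Cilp, Masp1 and Plxdc2 rose in females to levels within or above the male range. Cilp, a matrix protein first described in cartilage (chr9:65265180-65280605, + strand), was at 9.54, 1.97, 2.29 and 4.39 CPM in PE+/− females and at 122, 68.7 and 88.3 in PE−/− females. The males stood at 49.4, 64.7, 37.7 and 35.9 CPM in PE+/− and at 92.5, 56.7, 37.8 and 56.1 in PE−/−. The 4 PE+/− females lay below every other library, and the male groups overlapped. The rise in females was 4.37 (adjusted p = 0.00111) against 0.37 in males, a difference of 4.00 ± 0.65 (adjusted p = 0.0321) kept in 6 of 15 fits. Masp1, a protease of the lectin pathway of complement, rose from 5.31 to 9.46 CPM in PE+/− females to 15.7 to 22.7 in PE−/− females, beside 13.1 to 25.3 across males (1.73 ± 0.29, adjusted p = 0.0347). Plxdc2, a transmembrane protein with a plexin domain, rose from 6.91 to 10.7 CPM to 18.3 to 21.0, beside 15.4 to 27.0 across males (1.51 ± 0.25, adjusted p = 0.0347). Each of these 2 calls was kept in 5 of 15 fits. Masp1 overlaps Rtp4, a protein-coding gene on the other strand, so its counts are uncertain. Sox11, a transcription factor, lay just outside (1.43, adjusted p = 0.0550).

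The male side of the contrast rested on few genes. Ramp1, the accessory protein of the receptor for calcitonin gene-related peptide (chr1:91179822-91225196, + strand), was at 51.2, 39.8, 52.0 and 42.5 CPM in PE+/− males and at 7.03, 9.96, 9.32 and 8.71 in PE−/− males. Females held 6.33, 10.01, 7.19 and 8.54 CPM in PE+/− and 8.03, 14.1 and 8.32 in PE−/−. PE+/− males were above every other library, with no overlap, and the other 3 groups overlapped. In males Ramp1 fell, with a log2 change of −2.40 (adjusted p = 0.000206) and had 0.34 in females (adjusted p = 0.495). The difference of 2.75 ± 0.30 had the smallest adjusted p of the 27 (0.00518) and passed in 15 of 15 fits without 1 library. In the libraries with no Oxt count it was 2.96 with an adjusted p of 0.0665.

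Unc13c, a priming factor of vesicle release (chr9:73479422-73968966, − strand), also stood highest in PE+/− males, at a lower level. It was at 5.29, 4.31, 3.72 and 4.85 CPM in PE+/− males and at 0.708, 0.345, 0.797 and 0.797 in PE−/− males, and females held 0.988 to 1.55 CPM. PE−/− males thus lay below all females. Their counts were 14, 9, 17 and 14, near the floor of 12, so the sizes that follow are uncertain. The fall in males was −2.78 (adjusted p = 0.000956) and the difference 2.67 ± 0.42 (adjusted p = 0.0267, 6 of 15 fits). Megf10, an engulfment receptor (chr18:57133090-57297467, + strand), was the gene that changed in both sexes, in opposite directions. In females it was at 2.42, 1.80, 1.42 and 2.44 CPM in PE+/− and at 3.77, 4.79 and 5.47 in PE−/−. In males it was at 10.7, 15.2, 12.6 and 12.5 CPM in PE+/− and at 6.02, 3.37, 2.25 and 3.30 in PE−/−. The PE−/− groups of the sexes overlapped, below all PE+/− males, and 1 PE−/− male lay in the range of PE+/− females (1.22 in females, adjusted p = 0.0412, −1.77 in males, adjusted p = 0.0172, difference 2.99 ± 0.41, adjusted p = 0.0156, 14 of 15 fits). Mgat4c, of a family of N-acetylglucosaminyltransferases, had a similar order over a smaller range, 16.1 to 17.4 against 21.2 to 22.8 CPM in females and 25.6 to 34.5 against 16.7 to 22.5 CPM in males (1.05 ± 0.18, adjusted p = 0.0347, 2 of 15 fits).

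**Figure D2:**
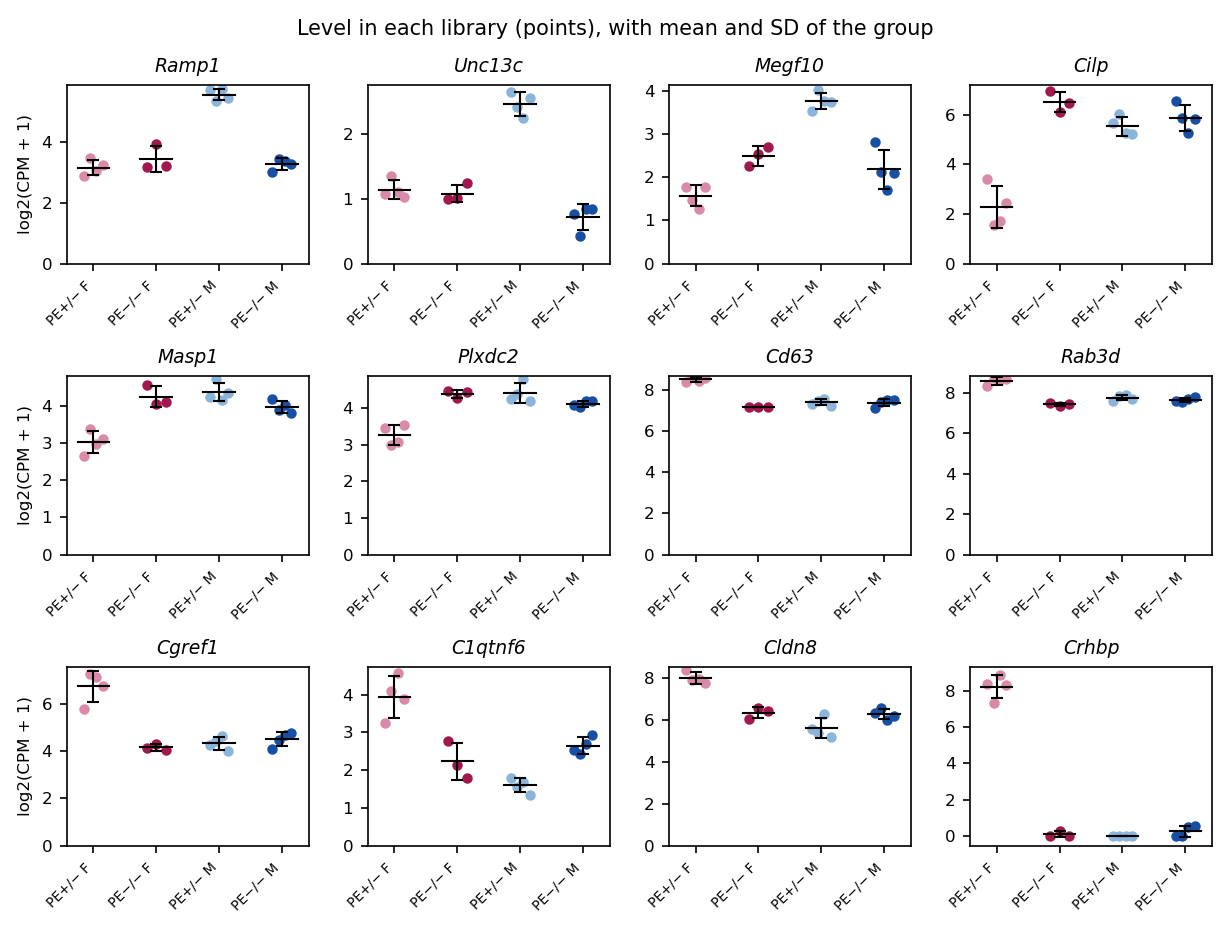
Level of 12 genes in each library as log2(CPM + 1), with the group mean (bar) and SD (whisker), for PE+/− and PE−/− females (F) and males (M). In the top row and in Masp1 and Plxdc2 the difference was above 0, and in the other 6 genes, from Cd63 to Crhbp, PE+/− females stand above PE−/− females.

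The remaining 7 of the 27 were 6 gene models without a settled symbol and Reln, whose difference of −6.67 (adjusted p = 0.0212) rested on counts at 0 in some libraries of a group and at 20 or more in others. The sexes were also compared directly within each genotype, on the same libraries. Females differed from males in 392 autosomal genes among PE+/− libraries (2.11%) and in 0 among PE−/− libraries (0%) by the edgeR quasi-likelihood test, where 508 genes had an unadjusted p under 0.05 (2.73%). DESeq2 called 1156 and 26 of the 18601 autosomal genes. Females less males, Ramp1 was at −2.53 in PE+/− and 0.22 in PE−/−, Megf10 at −2.66 and 0.33, Cd63 at 1.12 and −0.22, and Cgref1 at 2.56 and −0.39. In each pair the PE−/− value less the PE+/− value is the difference already tested. These genes were picked by that difference, so the pairs restate it and add no separate evidence. A p that misses the threshold does not show that the sexes were alike in PE−/−. On the first principal component of log CPM, the main axis of variation over all genes tested, PE+/− females stood at −95.8 to −52.8. All other libraries lay at 5.7 to 43 on it. What set the PE+/− female libraries apart was not tested.

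Gene programs were followed as 34 lists. Few of their members passed the test of the difference, so a list is described by its median difference and by its members with an unadjusted p under 0.05, which over all autosomal genes were 4.68% higher and 5.37% lower (10% in all). For the genotype effect in females alone, 1.68% of all genes rose and 2% fell, and in males alone 0.0753% and 0.108%. Of the 18601 autosomal genes, the difference passed in 377 by DESeq2, 193 by the likelihood ratio test and 71 by limma voom. List members called by those tools are to be read beside these totals. Because a whole gland was sequenced, fewer cells of a type and less RNA per cell cannot be told apart in any list of cell type genes.

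**Figure D3:**
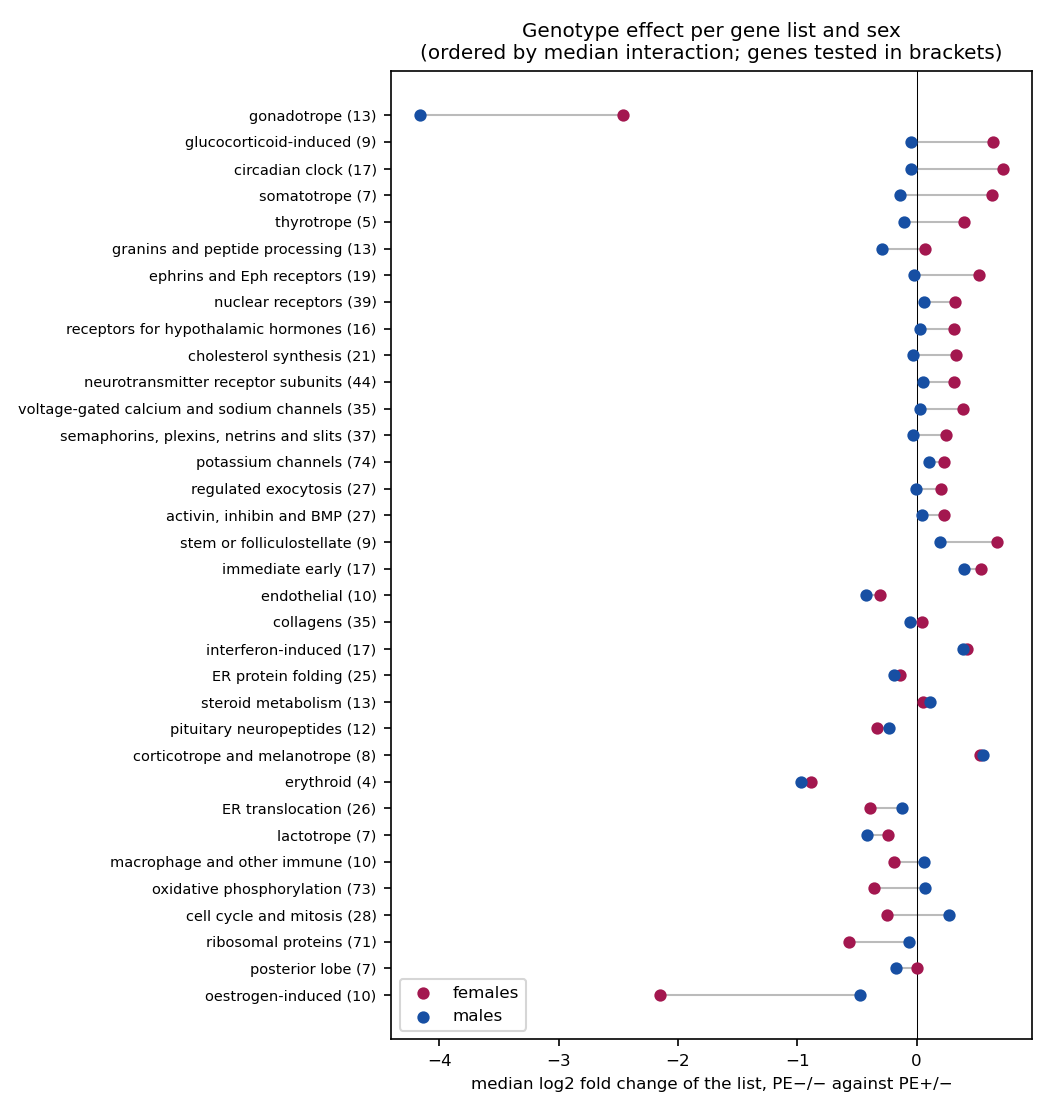
Median log2 fold change between PE−/− and PE+/− of the tested genes of each list, in females (red) and in males (blue), in order of the median difference between the sexes, with the number of genes in brackets. Male medians cluster near 0 in most lists and female medians spread to each side, while the gonadotrope list lies far below 0 in both sexes, at −2.46 in females and −4.16 in males.

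Genes that oestradiol is known to raise in the pituitary had a median difference of −1.52 over 10 genes (−2.15 in females and −0.48 in males). In females 5 of the 10 fell and 1 rose, and in males 0 passed. For the difference 4 were lower and 1 higher at an unadjusted p under 0.05, and 0 passed after adjustment by edgeR's quasi-likelihood test, against 1 by DESeq2, 2 by the likelihood ratio test and 0 by limma voom. The mean log2 level of the list, each gene centred at 0, ran from 1.12 to 1.84 in PE+/− females, from −1.16 to −0.70 in PE−/− females, from −0.31 to 0.59 in PE+/− males and from −1.31 to −0.29 in PE−/− males. PE+/− females were separate from all others. The median was −0.75 without PE−/− male 4, −0.64 by limma voom and −0.88 in the libraries with no Oxt count.

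Gal, the gene of the peptide galanin, changed most among them in females. It was at 87.4, 759, 746 and 731 CPM in PE+/− females and at 0.927, 1.98 and 2.41 in PE−/− females, 0.305% of PE+/−. In males it was at 10.7, 13.03, 49.3 and 4.98 CPM in PE+/− and at 2.23, 1.69, 3.00 and 12.9 in PE−/−. The genotypes were separate in females (adjusted p = 0.00412) and overlapped in males, and the difference of −6.35 did not pass (adjusted p = 0.0854), although it did without PE+/− female 1 (adjusted p = 0.0405), whose Gal was the lowest of its group. In the libraries with no Oxt count the difference of Gal was −4.38 (adjusted p = 0.586). Pgr, the progesterone receptor, was at 20.7 to 61.7 CPM in PE+/− females and 8.34 to 11.8 in PE−/− females, and at 5.24 to 13.2 CPM across males (female change −1.73, adjusted p = 0.0232, difference −1.91, adjusted p = 0.172). Prl, the hormone of lactotropes, was at 34050, 29370, 21960 and 35110 CPM in PE+/− females and at 5189, 4459 and 5603 in PE−/− females. In males Prl ran from 12280 to 31180 CPM in PE+/− and from 4753 to 41220 in PE−/−. The male groups overlapped, and the difference of −2.40 did not pass (adjusted p = 0.274). Greb1 fell in females (−5.55, adjusted p = 0.0239), and Tgfa, a growth factor of the epidermal growth factor family, rose in them (1.69, adjusted p = 0.00612) against the direction of the list.

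Among 12 pituitary neuropeptides and their binding proteins, Crhbp and Gal fell in females and the median difference was −0.04, or −0.292 without PE−/− female 2. Summed, the list held 548 to 1324 CPM in PE+/− females, 83.3 to 103 in PE−/− females, 111 to 147 in PE+/− males and 85.0 to 119 in PE−/− males. Crhbp and Gal carried the excess of PE+/− females, since the other 10 genes summed to 108 to 133, 80.9 to 101, 86.5 to 134 and 82.8 to 106 CPM in the same order. Vip, Penk, Nmb and Cartpt did not pass in either sex. Of 13 genes of steroid metabolism, Akr1c14, a hydroxysteroid dehydrogenase, stood at 280, 367.5, 585 and 624 CPM in PE+/− females and at 0.432, 0.402 and 0.613 in PE−/− females. In males it was at 32.1, 20.7, 280 and 19.3 CPM in PE+/− and at 0.506, 0.345, 0 and 24.5 in PE−/−, so that 1 library of each male group stood far above the rest. Akr1c14 fell in females (adjusted p = 0.0265), and the difference did not pass (adjusted p = 0.344).

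**Figure D4:**
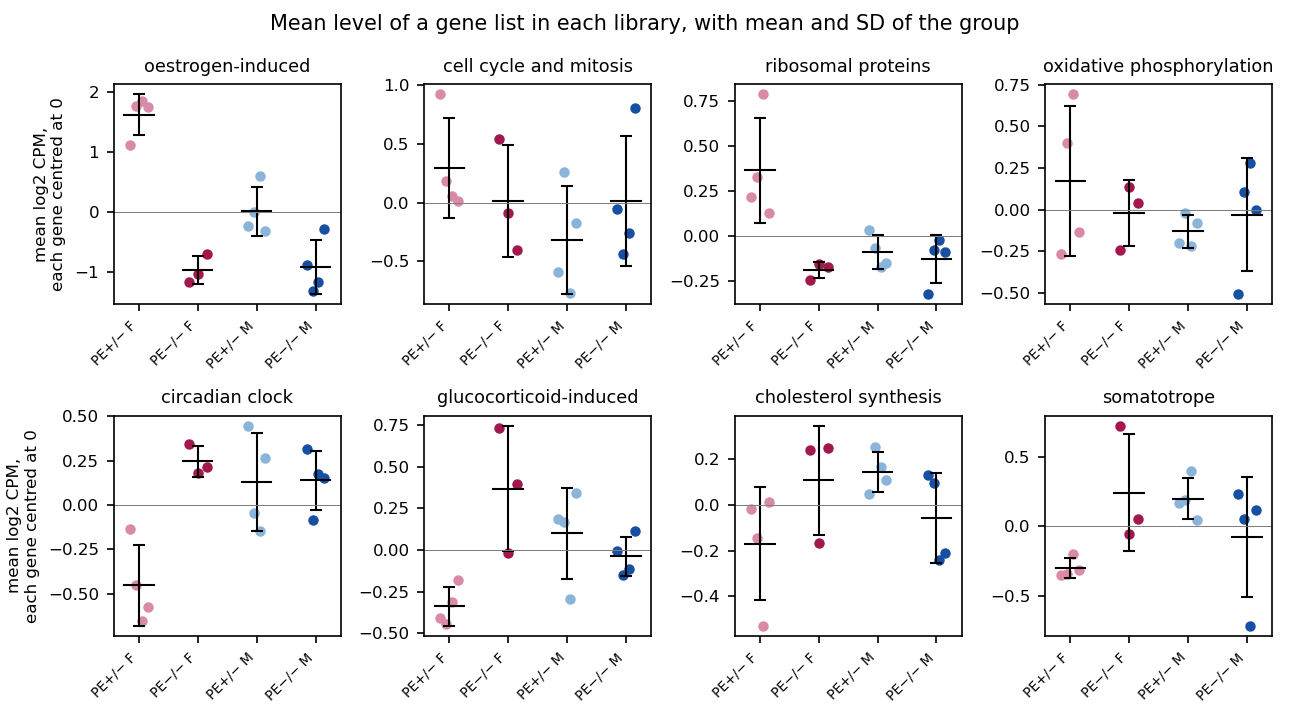
Mean log2 CPM of 8 gene lists in each library, each gene centred at 0 over the 15 libraries, with group means (bars) and SD (whiskers). PE+/− females stand above PE−/− females in the oestrogen-induced and ribosomal protein lists. They stand below them in the circadian clock, glucocorticoid-induced and somatotrope lists. In these lists the genotypes do not overlap in females, and the male groups overlap in all 8 lists.

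Cytosolic ribosomal proteins had a median difference of −0.60 over 71 genes, with −0.57 in females and −0.07 in males. In females 17 of the 71 fell and 0 rose. Of the differences, 60 were below 0, 24 were lower and 1 was higher at an unadjusted p under 0.05, and 0 passed after adjustment by the quasi-likelihood test, against 7 by DESeq2, 2 by the likelihood ratio test and 2 by limma voom. Their summed level was 6019 to 7753 CPM in PE+/− females, 3779 to 3898 in PE−/− females, 4134 to 4974 in PE+/− males and 3589 to 4538 in PE−/− males. Rplp0, of the ribosomal stalk, was at 604, 760.5, 754 and 587 CPM in PE+/− females and at 272, 246 and 117 in PE−/− females, and males held 249.5 to 374 CPM (difference −1.48, adjusted p = 0.101). Many ribosomal proteins have processed pseudogenes, and their counts are uncertain to that extent.

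Oxidative phosphorylation followed, with a median of −0.39 over 73 genes (−0.36 in females, 0.07 in males), 14 lower and 0 higher at an unadjusted p under 0.05, and 3 that fell in females. None of the 73 passed for the difference by the quasi-likelihood test, and 4 did by DESeq2 and 0 by the other 2 tests. Ndufc2, a subunit of complex I, had 166 to 225.5 CPM in PE+/− females, 102.5 to 125 in PE−/− females and 112 to 151 across males (difference −0.77, adjusted p = 0.158). Of 26 genes for entry of proteins into the endoplasmic reticulum, 2 fell in females, Sec11c of the signal peptidase (−1.13, adjusted p = 0.00377) and Ostc of the oligosaccharyltransferase (−0.81, adjusted p = 0.00433), and 4 differences were lower at an unadjusted p under 0.05 (median −0.18, from −0.331 without PE−/− female 1 to −0.072 without PE−/− female 2). Protein folding in the same compartment had a median of 0.01 over 25 genes, with 1 higher and 1 lower.

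Ribosomal proteins and oxidative phosphorylation have short transcripts, and the difference between the sexes moved with transcript length across all genes. The median difference was −0.38 over 1518 autosomal genes with transcripts under 750 nucleotides, −0.20 from 750 to 1500, −0.06 from 1500 to 3000, 0.08 from 3000 to 6000 and 0.19 above 6000. At an unadjusted p under 0.05, 12.3% of genes under 750 nucleotides were lower and 0.791% higher, while above 6000 the shares were 2.30% and 11.4%. In males the medians stayed between −0.012 and 0.035, and in females they ran from −0.337 to 0.180. Genes that are neither ribosomal nor of oxidative phosphorylation had −0.38 under 750 nucleotides and −0.19 from 750 to 1500. The median transcript was 1109 nucleotides for ribosomal proteins and 1186 for oxidative phosphorylation, both in the class from 750 to 1500. With an offset for length and GC content in each library, the median difference was −0.41 for ribosomal proteins and −0.14 for oxidative phosphorylation, and 12 ribosomal genes fell in females in place of 17. What made length and genotype move together in females was not tested.

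**Figure D5:**
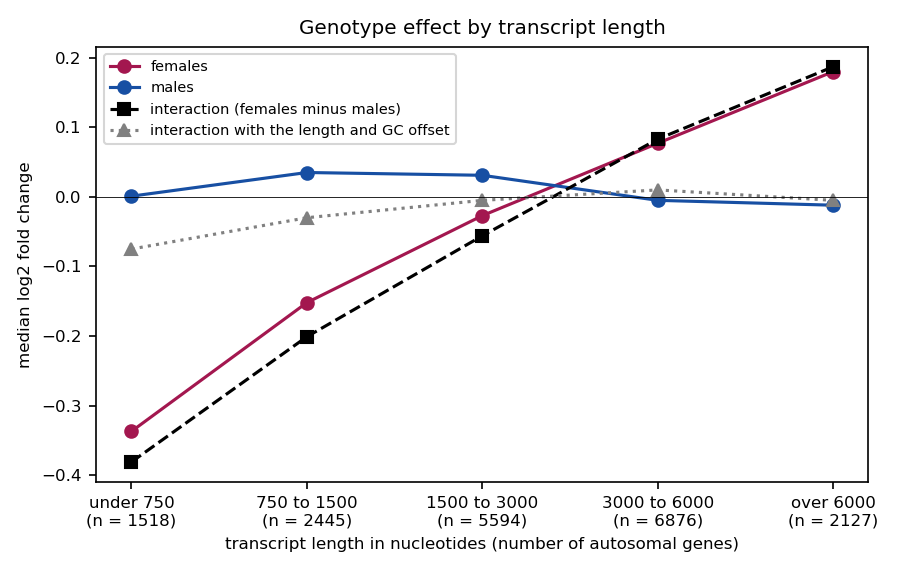
Median log2 fold change between PE−/− and PE+/− over autosomal genes in 5 classes of transcript length, in females, in males and as the difference between the sexes, with and without the offset for length and GC content. The female line and the difference rise from −0.337 and −0.381 in the shortest class to 0.180 and 0.187 in the longest, and the male line stays near 0.

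Cell cycle genes had a median of −0.48 over 28 genes, −0.25 in females and 0.27 in males, and 26 of the 28 differences were below 0. Only Birc5 (−1.48), Aurka (−0.89) and Mcm7 (−0.49) had an unadjusted p under 0.05, and by no tool did a member pass for the difference, nor in females by the quasi-likelihood test. The mean level overlapped between the genotypes in both sexes, from 0.011 to 0.923 in PE+/− females and −0.401 to 0.540 in PE−/− females. The median lay between −0.93 and −0.28 without 1 library in turn and was −0.58 with the length offset and −0.761 in the libraries with no Oxt count.

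Clock genes lay on the other side of 0. Their median difference was 0.69 over 17 genes (0.72 in females, −0.04 in males), 16 of 17 differences were above 0, and 5 were higher and 0 lower at an unadjusted p under 0.05, Nfil3, Cry2, Hlf, Dbp and Per2. Their mean log2 level was −0.65 to −0.14 in PE+/− females and 0.18 to 0.35 in PE−/− females, with −0.15 to 0.45 and −0.08 to 0.31 in the male groups. Nfil3, a repressor of the same sites that the activator Dbp binds, was at 15.01, 14.7, 9.69 and 14.8 CPM in PE+/− females and at 26.1, 27.1 and 27.1 in PE−/− females. The males held 17.8 to 27.0 CPM in PE+/− and 17.6 to 23.7 in PE−/− (difference 0.99, adjusted p = 0.164). Nfil3, Hlf (1.06, adjusted p = 0.0435) and Per3 (0.84, adjusted p = 0.0259) rose in females. The 5 higher genes include repressors (Per2, Cry2, Nfil3) and activators (Dbp, Hlf) of the clock outputs, and Arntl had 0.30 with an unadjusted p of 0.671. Time of day at collection is not given in the labels and was not tested. The difference passed in 0 members by the quasi-likelihood test and in 1 by DESeq2, and the median was 0.54 to 0.94 without 1 library in turn and 0.56 with the length offset.

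Genes induced by glucocorticoids had a median of 0.74 over 9 genes (0.64 in females, −0.04 in males), with 3 higher and 0 lower at an unadjusted p under 0.05, Fkbp5, Sgk1 and Klf9. None passed for the difference by the quasi-likelihood test, and 1 did by DESeq2. Fkbp5, a co-chaperone of the glucocorticoid receptor, was at 33.0, 32.8, 28.0 and 22.9 CPM in PE+/− females and at 56.3, 36.0 and 37.3 in PE−/− females. In males it was at 62.3, 72.9, 41.8 and 89.5 CPM in PE+/− and at 34.4, 35.1, 36.5 and 47.5 in PE−/−. The medians of the genotypes thus stood in opposite order in the sexes, and neither change passed alone (0.57 and −0.80, difference 1.36, adjusted p = 0.142). Sgk1, a kinase that controls ion channels, was at 21.9, 18.6, 28.0 and 23.1 CPM in PE+/− females and at 54.6, 43.3 and 41.6 in PE−/− females, and males held 27.1 to 50.9 CPM across genotypes. It rose in females (1.02, adjusted p = 0.0118), and its difference of 0.74 did not pass (adjusted p = 0.339).

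Promoters of RefSeq genes on GRCm38.p6, from 250 bases before to 50 bases after the start site, were searched on both strands for 3 spelled elements. Of the 27 genes, 19 had a promoter in the table. The oestrogen response element (GGTCA and TGACC with 3 bases between them) was in the promoters of 20 of 27025 genes (0.074%) and in none of the 19 or of 9 oestrogen-induced genes. The androgen or glucocorticoid response element (AGAACA and TGTTCT with 3 bases between them) was in those of 3 genes (0.0111%). Sgk1 was 1 of them and alone among the lists searched, so the 250 bases before that start site, within the annotated gene (chr10:21993640-21993889, + strand), are shown with the element in capitals, at −189 to −175 from the start.
Sgk1: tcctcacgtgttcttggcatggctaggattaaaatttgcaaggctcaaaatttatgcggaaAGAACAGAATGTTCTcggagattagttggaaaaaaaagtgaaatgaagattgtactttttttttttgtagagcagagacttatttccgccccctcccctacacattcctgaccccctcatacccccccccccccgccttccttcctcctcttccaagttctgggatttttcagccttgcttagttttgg
The NR5A1 site TCAAGGTCA was in the promoters of 126 genes (0.466%), in 0 of the 19 and in 0 of 11 gonadotrope genes, and a pair of other start sites of Sgk1 held it. A match of letters is a description of the sequence and not of binding.

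Cholesterol synthesis genes had a median of 0.38 over 21 genes (0.33 in females, −0.03 in males), with 7 higher and 0 lower at an unadjusted p under 0.05. Among these were Hmgcs1, Msmo1, Cyp51 and Lss, enzymes of the pathway, and Srebf2, which encodes its transcriptional regulator SREBP2, and no tool called a difference in the list. Without 1 library in turn 3 to 8 were higher, with the length offset 3, and in the libraries with no Oxt count 0. Hmgcs1, an early synthase of the pathway, was at 84.5, 70.4, 65.9 and 63.2 CPM in PE+/− females and at 115, 114 and 129 in PE−/− females. Males held 92.6 to 135 CPM in PE+/− and 90.4 to 131 in PE−/−. Hmgcs1 rose in females (0.75, adjusted p = 0.0260), whose PE+/− libraries were the lowest of the 4 groups.

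Somatotrope genes had a median of 0.69 over 7 genes, with 4 higher at an unadjusted p under 0.05, Ghsr, Gh, Foxo1 and Pappa2. Gh, growth hormone, was at 104800, 82570, 67880 and 59320 CPM in PE+/− females and at 174500, 86280 and 104400 in PE−/− females. In males it was at 157700, 171100, 186900 and 134100 CPM in PE+/− and at 129500, 105900, 65620 and 126300 in PE−/−. The male genotypes did not overlap and the female ones did, but neither change passed (−0.60, adjusted p = 0.738, and 0.63, adjusted p = 0.254), nor did the difference of 1.23 (adjusted p = 0.249). Ghsr, the ghrelin receptor, was at 0.782, 1.47, 2.12 and 3.36 CPM in PE+/− females and at 7.04, 4.30 and 5.65 in PE−/− females, beside 2.62 to 7.93 across males. It rose in females (1.54, adjusted p = 0.0472, difference 2.16, adjusted p = 0.146). The difference of Ghsr passed by DESeq2 and by the likelihood ratio test. Another receptor of hypothalamic signals, Sstr5 for somatostatin, rose in females (1.55, adjusted p = 0.0105) with 0.07 in males (difference 1.48, adjusted p = 0.180), and Oxtr for oxytocin had −3.72 (unadjusted p = 0.0334). Over the 16 such receptors the median was 0.40, with 2 higher and 1 lower at an unadjusted p under 0.05, and 0.263 without PE+/− female 1. Chga, the core protein of secretory granules, rose in females (1.16, adjusted p = 0.0103), and over 13 granins and processing enzymes the median was 0.62, with Chga and the prohormone convertase Pcsk1 higher (0.86 and 1.24), and it was 0.293 without PE+/− female 1.

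Nuclear receptors had a median of 0.41 over 39 genes, with 7 higher and 2 lower, and 5 rose and 2 fell in females, among them Vdr, the vitamin D receptor (1.24, adjusted p = 0.0219), and Nr3c1 and Nr3c2, the receptors for glucocorticoids and mineralocorticoids (0.87, adjusted p = 0.0450, and 0.80, adjusted p = 0.0180). The median was 0.26 without PE+/− male 3 and 0.276 with the length offset, under which 2 rose in females. Membrane excitability had similar medians. Potassium channels and their partners had 0.32 over 74 genes, with 9 higher and 1 lower at an unadjusted p under 0.05. In females 7 rose and 2 fell, Kcna5 rising from 77.4 to 133 CPM in PE+/− to 157 to 282 in PE−/− (0.99, adjusted p = 0.0390). In males Kcna5 was at 186 to 288 CPM in PE+/− and 135 to 180 in PE−/−, and its difference of 1.6 had an adjusted p of 0.0836. Voltage-gated calcium and sodium channels had 0.33 over 35 genes (5 higher, 2 lower), which fell to 0.15 with the length offset to 0.132 without PE+/− male 1 and to 0.03 in the libraries with no Oxt count. Neurotransmitter receptor subunits had 0.35 over 44 genes (4 higher, 1 lower), or 0.212 in the libraries with no Oxt count, and regulated exocytosis 0.28 over 27 (4 higher, 2 lower), among which Rab3d was lower and its paralogue Rab3b had 1.6 (adjusted p = 0.139) with a rise in females of 1.32 (adjusted p = 0.0219).

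Ephrins and their receptors had a median of 0.51 over 19 genes, with 4 higher and 1 lower, and of 0.284 without PE−/− female 2. No difference passed by the quasi-likelihood test or limma voom, and 2 did by DESeq2 and 2 by the likelihood ratio test. In females 4 rose and 1 fell, and in males 2 rose. Epha4 was at 0.469, 0.838, 0.109 and 0.305 CPM in PE+/− females and at 5.003, 3.62 and 2.89 in PE−/− females, beside 1.34 to 4.45 across males. It rose in females (adjusted p = 0.00793), and its difference was above 0 but did not pass (adjusted p = 0.174). The sizes of both are not given because its counts in PE+/− females were 6, 20, 2 and 5, mostly under the floor of detection. Efnb2 rose in females (0.70, adjusted p = 0.0499) and had −0.46 in males (difference 1.15, adjusted p = 0.0909). Semaphorins, plexins, netrins and slits had 0.33 over 37 genes, 5 higher and 2 lower, with Sema3a alone past the test. Their median was 0.09 with the length offset, 0.195 in the libraries with no Oxt count and 0.102 without PE+/− female 1. The activin, inhibin and BMP list had 0.23 over 27 genes (3 higher, 1 lower), with 0.107 without PE+/− male 1 and 0.393 without PE+/− male 2. Collagens had 0.06 over 35 (2 higher, 3 lower), with −0.201 without PE+/− male 4 and 0.208 without PE−/− female 3, and Col1a2 of type I collagen fell in females (−1.94, adjusted p = 0.00592, difference −1.62, adjusted p = 0.158).

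The gonadotrope list, which holds the cells that the deletion targets, had a median difference of 1.16 over 13 genes. The medians were −2.46 in females and −4.16 in males. In females 4 of the 13 fell and in males 7, and 12 of 13 differences were above 0, with 4 higher and 0 lower at an unadjusted p under 0.05. The list was drawn up with Grem1, Spp1, Tgfbr3l and Nr0b2, which the paper picked in males, partly as lower in PE−/− pituitaries of these libraries. The falls of the list, and its larger fall in males, are therefore not independent of that choice. No member passed for the difference by the quasi-likelihood test, and 1 did by DESeq2 and 1 by the likelihood ratio test. The members with an unadjusted p under 0.05 were Grem1, Foxp2, Foxl2 and Lhb. Grem1, a secreted antagonist of bone morphogenetic proteins, was at 40.0, 16.1, 25.1 and 22.8 CPM in PE+/− males and at 2.58, 0.957, 1.97 and 0.285 in PE−/− males, and females held 0 to 2.05 CPM in PE+/− and 1.24 to 1.67 in PE−/−. It was thus low in all groups but PE+/− males (male change −4.16, adjusted p = 0.0399, difference 4.34, adjusted p = 0.118). Its counts in PE+/− females were uneven, at 0 in PE+/− female 1 and 22 to 49 in the others, so the size of the difference is uncertain. Foxp2, a forkhead factor, fell in males (−1.40, adjusted p = 0.00448) and had −0.69 in females (difference 0.71, adjusted p = 0.381). For Nr5a1 itself the difference did not pass (adjusted p = 0.538), and its size is not given because 3 of the 4 PE−/− males were under the floor of 12 counts. Differences of Lhb (1.36, adjusted p = 0.452), Gnrhr (0.96, adjusted p = 0.569), Fshb (1.88, adjusted p = 0.597) and Cga (0.33, adjusted p = 0.936) did not pass. The mean level of the list was 0.40 to 1.03 in PE+/− females and 1.31 to 2.05 in PE+/− males, and the PE−/− ranges overlapped (−1.39 to −0.95 in females and −2.14 to −1.18 in males).

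The other lists of cell types and responses had few members at such a p. At an unadjusted p under 0.05, 0 differences were found among 10 endothelial, 4 erythroid, 7 posterior lobe, 8 corticotrope and melanotrope, 17 immediate early and 17 interferon-induced genes. There was 1 lower among 10 macrophage and other immune genes, 1 lower among 13 of steroid metabolism, 1 higher among 5 thyrotrope genes, 1 higher among 9 stem or folliculostellate genes, and 1 in each direction among 7 lactotrope genes. The median of the posterior lobe list was −1.15, with 3 differences above 0 and 4 below, and it was 2.73 without PE−/− male 3, the library with the most Oxt. The thyrotrope median was 0.67 with 5 of 5 differences above 0 (0.365 without PE−/− male 4), the immune median −0.32 (−0.13 without PE−/− male 3) and that of stem or folliculostellate genes 0.20 (0.568 without PE−/− male 3 and 0.12 without PE−/− female 1). The medians of the other lists of this paragraph lay between −0.196 and 0.112, and without 1 library in turn between −0.475 and 0.438, in each of them reaching 0 or its other side. By the quasi-likelihood test 0 members of these lists passed after adjustment, among them Tshb (0.70, adjusted p = 0.859) and Pomc (−0.15, adjusted p = 0.989), whose sign turned under 7 alternatives. Summed endothelial markers held 165 to 212 CPM in PE+/− females, 142 to 166 in PE−/− females, 124 to 408 in PE+/− males and 119 to 144 in PE−/− males. Erythroid markers held 570 to 1343, 383 to 789, 499 to 1260 and 204 to 893 CPM in the same order, and immune markers 187 to 257.5, 193 to 201, 211 to 277 and 200 to 258. The part of other cell types in the differences above was not tested.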

How the data were processed

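The deposited values were estimated counts per gene, which the authors made from paired reads of whole pituitaries. Their methods name cutadapt, STAR on mm10 and featureCounts, each with default parameters, which in featureCounts ignore strand. The gene names pair assembled loci or Ensembl genes with symbols, and the values fit an assembly's coverage-based estimates, a step not given in the sources used here. The annotation release, and whether that step used strand, are likewise not given, so antisense and overlapping genes are uncertain. Libraries were made with a low-input kit and without molecular identifiers, and floors cover counting error only. The estimated counts were whole numbers in the deposited table and were tested as they stood.

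Each of 15 columns was matched to its sample by name (0 unmatched). In R 4.3.3 with edgeR 4.0.16, genes passing filterByExpr (minimum count 10, minimum total 15) were TMM scaled and fitted by quasi-likelihood with 4 group means. The contrast was (PE−/− females less PE+/− females) less the same in males, two-sided, adjusted by Benjamini-Hochberg over 19286 genes, with a threshold of 0.05. The common biological coefficient of variation was 46.9%. Each SE is the size of the log2 change over the root of its F value. The floor was 12 counts, taken as 3 fragments at the assumed 4 counts per fragment. Replicates differed by more than counting noise (chi-square per degree of freedom 71.4 to 231). Log CPM in list levels used a prior count of 2.

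Named genes were the 24 autosomal genes of smallest p with a mean of at least 20 counts, no uneven zeros and a settled symbol, then for each list the members past the threshold or the 2 of smallest p, with the main hormone genes and Nr5a1. Greb1, Tgfa, Per3, Hlf, Nr3c1, Nr3c2, Oxtr and other list members with no such rank were chosen after their values were seen. The lists hold textbook members of each program, and some members are not reported here by name. The contrast and the lists were chosen with earlier results of these data known. Genes of the sex chromosomes were tested but are not described (4 X-linked genes passed).

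Alternatives were DESeq2 1.42.0, the likelihood ratio test, limma 3.58.1 voom with sample quality weights, other scalings and filters, summed loci, counts divided by 4, leaving out uneven genes, a block for replicate number, and fits without each library in turn. A length and GC offset and a fit on the 11 libraries with no Oxt count were added after seeing the data. Scripts were tested on simulated data. Same-numbered libraries did not deviate together (2 of 21 pairs above a correlation of 0.1), so replicates were not paired. Coordinates are from GENCODE on mm10, and promoters are from RefSeq on GRCm38.p6. Transcript lengths, of the longest coding transcript where a gene had one, were known for 99.8% of genes. Isolated gonadotropes of the same study were not analysed here.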

Additional observations from a re-analysis of the deposited data

Results flagged for a closer look

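The difference between the sexes was itself tested and passed in 20 named genes. Above 0 were Ramp1 (2.75), Megf10 (2.99), Unc13c (2.67), Cilp (4.00), Masp1 (1.73), Plxdc2 (1.51) and Mgat4c (1.05), on the log2 scale. Below 0 were Cd63 (−1.34), Cgref1 (−2.95), C1qtnf6 (−3.36), Cldn8 (−2.29), Rab3d (−1.07), Cryz (−1.32), Olfm3 (−2.05), Kcnip4 (−3.08), Elovl4 (−1.26), Sema3a (−2.06), Tmed3 (−1.02) and Rnaseh2c (−1.44). Crhbp, near 0 in 3 of the 4 groups, is given by its adjusted p of 0.0184.

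In groups of 4 libraries, 1 library stood apart by Dixon's criterion in 17 of 273 groups of named genes (6.23%), where chance gives about 1 in 20. PE−/− male 4 accounted for 5 of these, with Gal high (12.9 CPM against 1.69 to 3.00), Fkbp5 high (47.5 against 34.4 to 36.5), Akr1c14 high (24.5 against 0 to 0.506), Lhb low (3.13 against 15.2 to 17.2) and Cga low (1346 against 6376 to 6723). In PE+/− male 1, Dusp1 (637 against 19.02 to 80.7 CPM), Plvap (285 against 12.2 to 40.8) and Egr1 (1030 against 108 to 138) were high. In PE+/− female 3, Nfil3 (9.69 against 14.7 to 15.01 CPM) and Cacnb3 (47.4 against 83.0 to 85.9) were low and Csf1r (9.91 against 7.81 to 8.05) was high. The other 6 were Gal low in PE+/− female 1 (87.4 against 731 to 759 CPM), Fshb high in PE+/− female 4 (1754 against 163 to 359), Akr1c14 high in PE+/− male 3 (280 against 19.3 to 32.1), Sel1l low in PE+/− male 4 (242 against 303 to 312), Rpl18 high in PE−/− male 1 (31.0 against 9.19 to 12.3) and Elovl4 low in PE−/− male 2 (31.0 against 37.8 to 39.1).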

How the results depend on the processing

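The 27 differences became 377 by DESeq2 and 193 by the likelihood ratio test, each including all 27, and 71 by limma voom, including 21. They were 41 without uneven genes, 8 with the replicate block (5 of the 27 kept) and 8 in the libraries with no Oxt count (0 kept), where fewer libraries were fitted. Other scalings, filters, summed loci, counts divided by 4 and the length offset gave 21 to 38. Without 1 library in turn the count ran from 5 (PE−/− female 3) to 66 (PE+/− female 1). It was 6 without PE−/− male 4, 10 without PE−/− female 1, 11 without PE+/− male 2, 12 without PE+/− female 3 or PE−/− male 3, 14 without PE+/− female 4 and 16 without PE+/− male 4, PE−/− male 1 or PE−/− male 2.

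For females the 684 genes became 1537 by DESeq2, 1158 by limma voom, 412 with no filter, 452 with the block, 359 in the libraries with no Oxt count, and 239 (without PE−/− female 3) to 813 (without PE+/− female 1). For males the 34 became 188 by DESeq2, 170 by the likelihood ratio test, 21 with the block and 17 in the libraries with no Oxt count, with 21 to 34 without 1 library, 21 without PE−/− male 1, 2 or 3. The cause was not tested.

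Directions turned only in genes that did not pass. Without 1 library in turn, the values of those genes farthest to the main side were 2.05 (Dusp1), 4.06 (Lhx2), 1.41 (Plvap), 2.33 (Egr1), −0.61 (Hba-a2) and −0.54 (Pomc). Without PE+/− male 1, Dusp1 had −0.50, Plvap −0.69 and Egr1 −0.16, and Plvap had −0.12 by limma voom. Lhx2 had −0.30 without PE−/− female 2. Hba-a2 had 0.26 without PE−/− male 4, 0.06 with the length offset and 0.10 with no Oxt count. Pomc had 0.39 by limma voom, 0.06 with the block, 0.06 without PE+/− female 1, 0.12 without PE+/− male 3, 0.43 without PE−/− male 3, 0.01 with the offset and 0.68 with no Oxt count.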
